A study of Mus musculus with 5 samples.

Results

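The cytosolic ribosomal protein genes are the nuclear genes whose products, together with ribosomal RNA, make up the ribosome of the cytosol. They were taken here by name: every mouse gene symbol of the form Rpl or Rps with a number and at most 2 trailing letters, plus Rplp0, Rplp1, Rplp2 and Rpsa, without Rps27a, the Rps6k kinases and pseudogene names. This gave 82 of the 17923 genes listed in at least 1 library, 32 of the small subunit (40S), 47 of the large subunit (60S) and 3 of the stalk. RNA was sequenced from cell lines derived from mouse thyroid tumors driven by BRAFV600E, the mutant kinase allele that every sample carries. The 2 BVE-Ctnnb1wt libraries have intact Ctnnb1, the gene of β-catenin, and the 3 BVE-Ctnnb1null libraries are labelled as carrying its deletion as well. They are called wt and null libraries below. Both wt libraries came from a line named BVE at passage 20, of which the first had no thyroid stimulating hormone (TSH) and the second had it. Null replicate 1 came from BVECTN_4 at passage 8 without TSH, replicate 2 from BVECTN_4A at passage 11 and replicate 3 from BVECTN_5 at passage 7. For the last 2 the labels do not state TSH. The protocol text gives instead about 25 passages for the wt line and about 20 for the null lines, in medium with 4 mU/mL bovine TSH. What drives the alleles in the thyroid is not given in the sources used here. The wt libraries share 1 line name, so genotype, line and passage cannot be told apart, and p-values measure only the spread between these 5 libraries.

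A ribosome pairs a small subunit, which decodes the messenger RNA, with a large subunit, which joins amino acids, and each subunit holds its proteins in single copy except for the stalk proteins P1 and P2. Ribosomal protein messages are among the most abundant in growing cells and are produced together. Most begin with a C followed by a run of pyrimidines, the 5′ terminal oligopyrimidine (TOP) motif, through which the growth kinase mTOR and the protein LARP1 control their translation and stability.

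The labels were first set against the data. Ctnnb1 was at an FPKM (fragments counted per kilobase of transcript, scaled to the size of the library) of 59.3 and 73.8 in wt, against 125, 196 and 118 in null replicates 1 to 3. Its level was thus higher, not lower, in every null library. The difference was 0.55 ± 0.44 (SE) on the log2 scale of edgeR's quasi-likelihood test, with an adjusted p of 0.517. Such an order was common, as every null library lay above both wt libraries in FPKM in 4749 of the 13240 genes tested. The median log2 fold change over all genes tested was 0.29. The files give totals per transcript and do not show which exons the reads covered, so the deletion itself was not checked here. Of 8 thyroid follicular markers, 3, 2, 4, 3 and 2 reached an FPKM of 1 in wt replicates 1 and 2 and null replicates 1 to 3. Their summed FPKM was 15.3, 20.6, 35.0, 68.5 and 4.83, led by the transcription factor Nkx2-1 or, in null replicates 1 and 3, by Pax8. The thyroglobulin gene Tg, which defines hormone synthesis, and the TSH receptor gene Tshr stayed under an FPKM of 1 in all 5 libraries. The 4 epithelial markers summed to 962 and 1567 in wt and to 4690, 577 and 649 in null, led by Krt8 or Krt18, and Epcam and Cdh1 were not listed in null replicate 2. The 7 fibroblast markers summed to 285 and 250 in wt and to 1.51, 127 and 1302 in null, with Col1a1 the most abundant in each. Of the leukocyte markers Cd68 was listed at 6.09 to 14.2 in the wt and 1.00 to 59.8 in the null libraries, while Ptprc and Cd3e were not listed in any library. The 2 red cell markers summed to at most 2.43. The null libraries thus differed widely among themselves in epithelial and fibroblast markers, and the part of these markers in the results below was not tested.

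Ribosomal protein genes took up a much smaller share of each null library. They held 23.2% and 23.3% of all estimated counts in wt replicates 1 and 2, and 8.72%, 11.2% and 12.7% in null replicates 1, 2 and 3. The groups did not overlap, and the means were 23.2% ± 0.048 (SD, n = 2) and 10.9% ± 2.02 (SD, n = 3), a ratio of 2.14. The 40S genes went from 10.3% ± 0.15 to 4.39% ± 0.67, the 60S genes from 11.2% ± 0.17 to 5.61% ± 1.18 and the stalk genes from 1.75% ± 0.070 to 0.889% ± 0.20, each as SD with n = 2 and n = 3. Depth was even, with 30432737 and 30713079 estimated counts in wt and 29929677, 29360002 and 29415980 in null, so that in each library 3 counts make about 0.10 CPM (counts scaled to the library total). A share is relative to all other RNA in the library, and in bulk samples fewer cells of a type and less RNA per cell cannot be told apart.

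**Figure D1:**
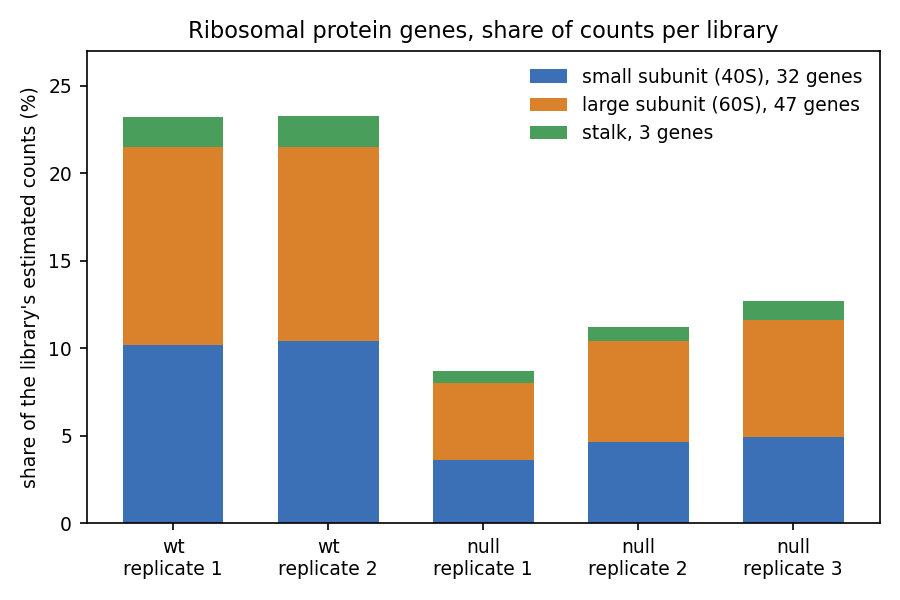
Share of each library's estimated counts (%) held by the 82 ribosomal protein genes, stacked by subunit, for 2 wt and 3 null libraries, with no error bars because each bar is 1 library. The wt bars reach 23.2% and 23.3%, and the null bars reach 8.72%, 11.2% and 12.7%.

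The 10 most abundant genes of each library moved with this share. They held 14.3% and 15.0% of counts in wt and 6.93%, 7.997% and 7.92% in null, and some of them are ribosomal protein genes. With those 10 left out of each library, the members' share was 20.0% ± 0.51 (SD, n = 2) in wt and 10.2% ± 1.63 (SD, n = 3) in null. Counted by FPKM, which divides by transcript length, the share was 39.3% ± 0.77 in wt and 23.9% ± 3.60 in null.

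Gene by gene, every tested member had a lower fitted level in null than in wt. Of the 82 members, 79 passed the filter on low counts and were tested by edgeR with TMM normalization among 13240 genes. Their log2 fold changes of null over wt ran from -3.08 to -0.38 with a median of -1.58 (quartiles -1.89 and -1.30), beside a median of 0.29 over all genes tested. The lowest value is that of Rpl32l, which passed the filter through 33 and 19 counts in wt, with 1, 7 and 5 in null. No member passed edgeR's Benjamini-Hochberg adjusted threshold of 0.05 (lowest adjusted p 0.18), and neither did any other gene (0%). At an unadjusted p under 0.05, 65 of the 79 were lower, where 6.07% of all genes tested were, and 0 were higher, where 12.4% of all genes were. With at least 10 counts required in every library, 64 of 78 were lower at that threshold, where 6.615% of all genes tested were. The members' median in that fit was -1.55. Without wt replicate 2 the count of lower members was 41 of 80, where 2.02% of all genes tested were lower. DESeq2, with its own size factors, put 53 of the 79 below an adjusted p of 0.05 and lower, where 3.68% of all genes tested were.

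The size of the difference depended on the scaling. With library totals in place of TMM the median of the members was -0.97 and 37 of 79 were lower at an unadjusted p under 0.05 in edgeR, where 2.08% of all genes were, while the median of all genes moved to 0.87. Relative to the median of all genes, the members' median was -1.87 with TMM and -1.84 with library totals. A change of scaling moves all genes by nearly the same amount, so these 2 values are close by construction. TMM factors were 0.816 and 0.719 in wt and 1.13, 1.25 and 1.21 in null. Both scalings are relative, and the amount of these messages per cell was not measured.

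On the FPKM scale the same genes can be followed without a fit. In 64 of the 79 tested members all 3 null libraries lay below both wt libraries, where 7.22% of all genes tested did so. On CPM after TMM it was 78 of 79, where 18.7% of all genes did so, and Rpl30 was the exception. The median level of the 75 members other than copies and paralogs was 3333 and 3142 FPKM in wt, against 1305, 1950 and 1950 in null replicates 1 to 3. Null replicate 1 was the lowest of the 5 libraries for 61 of the 79, and null replicates 2 and 3 for 9 each. Each wt library was the highest for 36 of them, and null replicate 3 for the other 7.

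**Figure D2:**
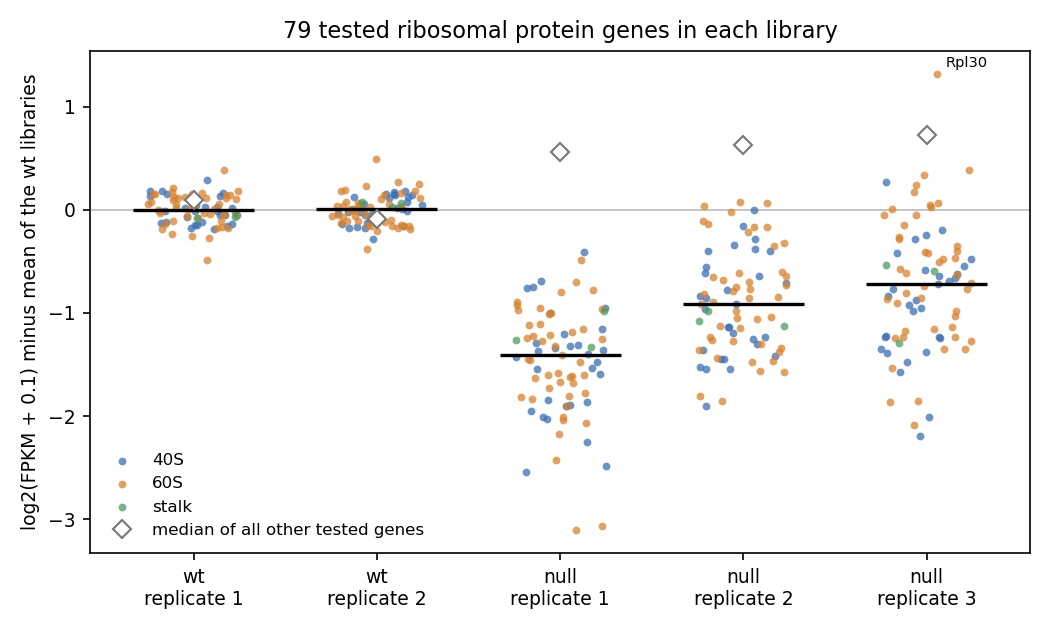
Log2(FPKM + 0.1) of the 79 tested members in each library minus the mean of the 2 wt libraries, 1 point per gene coloured by subunit, with the members' median as a bar and the median of all other tested genes as a diamond. The members' medians in null replicates 1 to 3 are -1.41, -0.91 and -0.72, while those of the other genes are 0.56, 0.63 and 0.73, and Rpl30 is the highest point of null replicate 3.

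Among the small subunit proteins, 28 of 30 tested genes were lower at an unadjusted p under 0.05 in edgeR, where 6.07% of all genes tested were, with a median log2 fold change of -1.62. Rpsa (NCBI gene 16785), whose product sits at the outer face of the small subunit and also serves as a laminin receptor, had the lowest p of all members. Its FPKM was 8149 and 7974 in wt and 2004, 2957 and 3165 in null, so the gap between the groups was wider than the range within either. Its log2 fold change was -2.17 ± 0.34 (SE; edgeR unadjusted p 0.000477, adjusted p 0.18). Rps2, an entry channel protein and the most abundant member, was at 11231 and 13706 in wt and at 5062, 4646 and 5231 in null (-1.92 ± 0.35). Its null libraries lay within a narrow range well under the wt libraries.

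Rps29, a zinc-binding protein of the small subunit head, had the largest fitted difference among members other than the copies. It was at 2184 and 2773 in wt and at 638, 845 and 539 in null, a log2 fold change of -2.48 ± 0.42 (SE). Rps3, which lines the entry of the mRNA channel, was at 4917 and 5245 in wt and at 1964, 1359 and 1263 in null (-2.31 ± 0.40). In Rps3 null replicate 1 was the highest of the null libraries, against the order seen in most members.

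Rps14, a platform protein, was at 8580 and 6689 in wt and at 2517, 2783 and 3246 in null (-2.00 ± 0.34). Rps16 was at 8054 and 9565 in wt and at 4402, 3055 and 3361 in null (-1.87 ± 0.40). Rps4x, the X-linked S4 gene, was at 3970 and 5106 in wt and at 1624, 2619 and 2726 in null (-1.58 ± 0.39). In all of these the groups were apart by more than the range within either.

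Rps6, the substrate of the S6 kinases downstream of mTOR, was a gene whose groups met. It was at 3562 and 2399 in wt and at 502, 2253 and 2400 in null, and its log2 fold change of -1.40 ± 0.63 (SE) had an unadjusted edgeR p of 0.0627. Null replicate 3 was at nearly the level of wt replicate 2, and null replicate 1 stood far below both. Rps12, by contrast, kept nearly the same place among the members in all libraries, at 3938 and 3995 in wt and 1371, 2423 and 2639 in null. Rps15a, at 122 and 120 in wt and 33.2, 95.7 and 86.7 in null, was the least abundant of the 75 members other than copies on the FPKM scale, and the transcript it was counted on is 5158 bases long, the longest of all members.

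Among the large subunit proteins other than the stalk, 34 of 46 tested genes were lower at an unadjusted p under 0.05 in edgeR, where 6.07% of all genes tested were, with a median log2 fold change of -1.50. Rpl3, which lies beside the peptidyl transferase centre, was at 6348 and 6627 in wt and at 1956, 2189 and 3187 in null (-2.01 ± 0.37). Rpl32 was at 7630 and 8019 in wt and at 2940, 2819 and 3248 in null (-1.97 ± 0.35). Rpl17, at the rim of the exit tunnel, was at 6898 and 5812 in wt and at 1995, 2636 and 2796 in null (-1.95 ± 0.34). Rpl10a was at 4456 and 4123 in wt and at 1406, 1829 and 1950 in null (-1.90 ± 0.35). All 4 kept their groups apart by more than the range within either.

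Rpl5 and Rpl11 form, with 5S ribosomal RNA, the particle that binds Mdm2 when ribosome assembly fails. Rpl5 was at 2281 and 1836 in wt and at 599, 1163 and 1466 in null (-1.53 ± 0.43). Rpl11 was at 4989 and 6898 in wt and at 1305, 2291 and 2972 in null (-2.06 ± 0.45). Rpl10, which is joined to the large subunit late in its maturation, was at 3682 and 3869 in wt and at 1244, 2182 and 2473 in null (-1.55 ± 0.40). Rpl39, a small protein of the exit tunnel, was at 2300 and 2790 in wt and at 721, 1031 and 1399 in null (-1.89 ± 0.43). Rpl41, the smallest ribosomal protein, had a weaker difference of -1.12 ± 0.42, and null replicate 2 at 6348 nearly reached the wt libraries at 6514 and 6375, while null replicates 1 and 3 were at 2831 and 4318.

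The stalk recruits the translation factors that hydrolyse GTP. Rplp0, its base, was at 8839 and 9160 in wt and at 3571, 4133 and 5982 in null (-1.58 ± 0.36). Rplp1 was at 7183 and 7920 in wt and at 3815, 3821 and 5209 in null (-1.41 ± 0.36). Rplp2 was at 4392 and 4879 in wt and at 1934, 2192 and 1887 in null (-1.80 ± 0.36). In each of the 3 genes every null library was below both wt libraries.

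The 2 subunits did not keep the same proportion of counts. The summed counts of 60S genes over those of 40S genes gave 1.11 and 1.06 in wt, against 1.20, 1.25 and 1.36 in null replicates 1 to 3. All 3 null libraries lay above both wt libraries, but with 2 against 3 libraries an exact permutation test cannot go below a p of 0.1, and no test was made of this sum over members. By the ratio of median FPKM the values were 0.693 and 0.744 in wt and 0.663, 0.735 and 0.749 in null, which overlap.

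Rpl30 varied most among the abundant members and was the only one of the 75 with a higher mean FPKM in null. It was at 429 and 608 in wt and at 187, 400 and 1276 in null, so the null libraries enclosed both wt libraries. Its log2 fold change was -0.38 ± 0.77 (SE; edgeR unadjusted p 0.634), and it turned to 0.25 with library totals. It came to -1.46 without null replicate 3, and also to -1.46 with the replicate number as a block. These 2 fits are alike by construction, because null replicate 3 is alone with its number and adds nothing to the group difference in the block fit. Rpl13a and Rpl36 varied next, in another order. Rpl13a, whose product also takes part in translational silencing in inflammation, was at 7490 and 8373 in wt and at 3955, 2189 and 1861 in null (-2.14 ± 0.48). Rpl36 was at 2455 and 3142 in wt and at 1985, 796 and 1184 in null (-1.65 ± 0.53). In both null replicate 1 was the highest of the null libraries.

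Rpl15, Rpl35 and Rps12 varied least after the median of the members was taken from each library. Rpl15 had an SD of 0.036 over the 5 libraries on that log2 scale, Rpl35 of 0.080 and Rps12 of 0.084, against 0.91 for Rpl30. Rpl15 was at 1413 and 1213 in wt and at 472, 780 and 802 in null, and Rpl35 was at 6411 and 5925 in wt and at 1924, 3263 and 3517 in null. Both followed the median of the group from library to library.

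The 15 tested members whose groups overlapped in FPKM were Rpl22, Rpl23, Rpl23a, Rpl24, Rpl26, Rpl30, Rpl31, Rpl36a, Rpl37, Rpl37rt, Rpl6, Rpl7, Rps24, Rps27l and Rps6. Null replicate 3 reached the wt range in 13 of them, null replicate 2 in 5 and null replicate 1 in 0. Of the 15, 3 are small subunit genes, namely Rps24, Rps6 and the paralog Rps27l, beside 30 of the 79 tested members. Rpl22, a protein dispensable for translation in many cells, was at 517 and 414 in wt and at 85.9, 256 and 585 in null. Its low value in null replicate 1 lay in 1 transcript of 2153 bases, at 431 and 298 in wt, not listed in null replicate 1, and at 184 and 457 in null replicates 2 and 3, whereas a transcript of 2203 bases was at 78.5, 113, 85.3, 69.8 and 117. A single transcript absent from 1 library can be a failed estimate.

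The order within the null libraries moved with base composition. Null replicate 1 was the lowest null library for 57 of the 75 members and the highest for 9, namely Rpl13a, Rpl18, Rpl28, Rpl36, Rps10, Rps15, Rps16, Rps28 and Rps3. Over the 75 members the difference between null replicate 1 and the mean of null replicates 2 and 3 on log2(FPKM + 0.1) had a Spearman correlation of 0.51 (Pearson 0.52) with the percentage of G and C in the transcript. Over 12980 other tested genes with a transcript matched it was 0.54 (Pearson 0.44). The genes share their libraries, and these values are descriptions. Rpl36, with 60.8% G and C, and Rps10, with 60.3%, lay at the upper end, while Rpl36a, with 46.6%, lay near the lower end and Rpl30, with 54.8%, stood apart from the trend. The comparison of null with wt moved with base composition too. Mean null minus mean wt on the same scale had a Spearman correlation with G and C of -0.25 over the 75 members. Over the 12980 other genes it was -0.26, both again as descriptions.

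**Figure D3:**
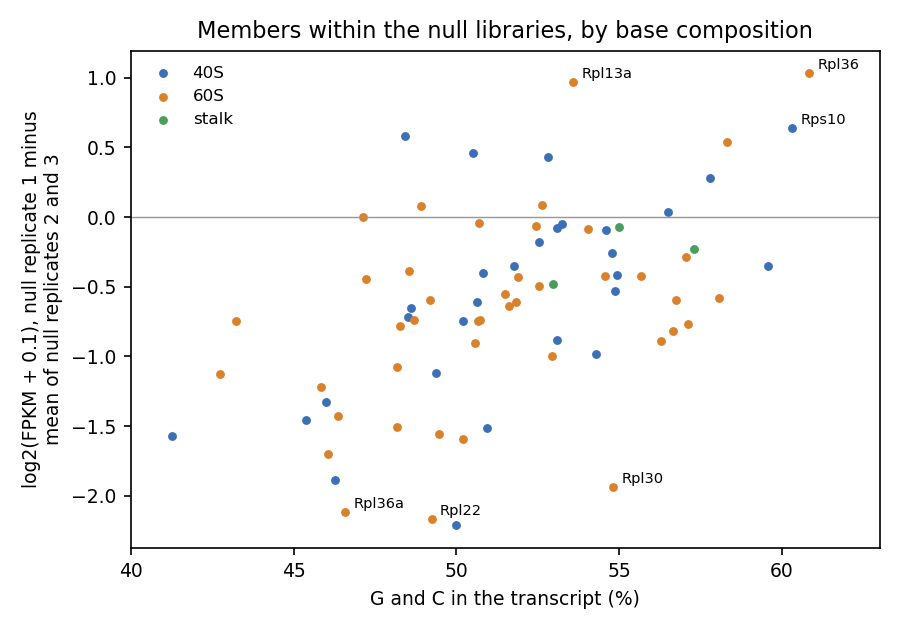
Log2(FPKM + 0.1) in null replicate 1 minus the mean of null replicates 2 and 3, against the percentage of G and C in the transcript, for the 75 members other than copies and paralogs, 1 point per gene. The points climb from left to right (Spearman 0.51), with Rpl36 and Rps10 at the upper right and Rpl30 far below the other genes of its composition.

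Transcript length moved with the comparison of wt and null across all genes. Over the other tested genes the median log2 fold change in edgeR was -0.88 for transcripts under 500 bases, -0.45 from 500 to 1000, -0.28 from 1000 to 2000, 0.26 from 2000 to 4000 and 1.08 from 4000 on. Ribosomal protein transcripts are short, with a median of 686 bases over the tested members against 2803 over the other genes tested. In the same classes the members' medians were -1.61 in 17 genes, -1.61 in 44, -1.53 in 15, -1.37 in 2 and -1.37 in 1. In each length class the members' median was below that of the other genes. On log2(FPKM + 0.1) the Spearman correlation of null minus wt with log2 length was 0.41 over 12980 other genes and 0.0093 over the 75 members, most of which fall within the first 2 length classes. The part of length in the difference of the members was not tested by these values. Whether RNA quality or library preparation differed between wt and null, which could give such trends, was not tested either, and every fold change of the members is to be read with that limit.

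**Figure D4:**
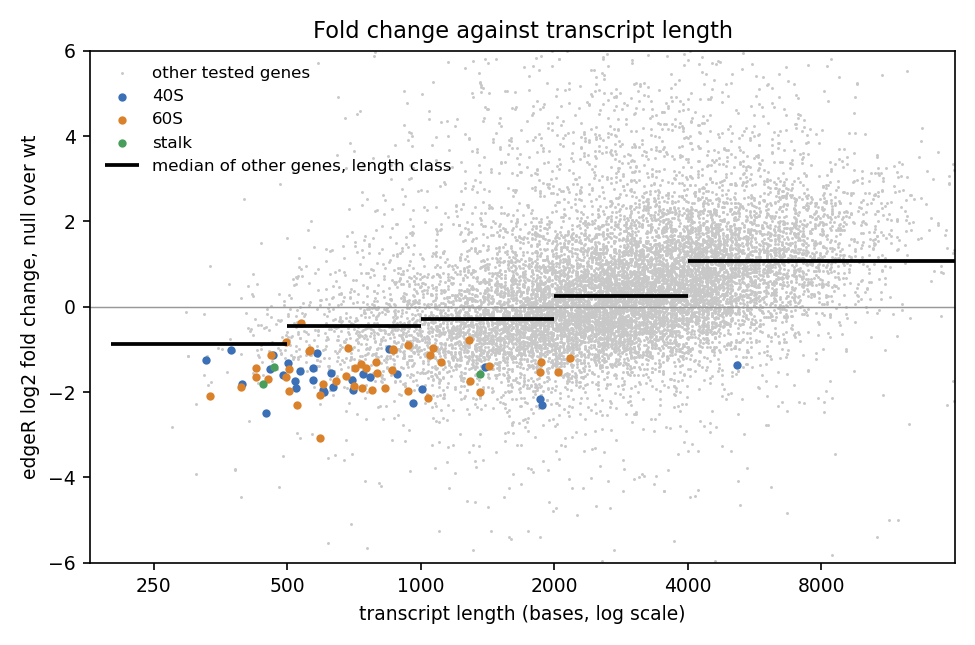
edgeR log2 fold change of null over wt against transcript length in bases on a log scale, with the 79 tested members coloured by subunit, other tested genes in grey and their medians in 5 length classes as bars. The bars rise from -0.88 to 1.08 while the members stay between -3.08 and -0.38 (369 of 13161 other genes lie outside the drawn range).

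A fit that took the trend of each library on length out of the counts was added after the data were seen. With this length offset, learned on genes that are not members, the members' median log2 fold change was -0.98, beside 0.12 over all genes tested, and 78 of 79 were negative. In that fit 38 of the 79 were lower at an unadjusted p under 0.05, where 5.79% of all genes tested were. With both length and base composition taken out, the median over the 77 members with a transcript matched was -0.84 beside 0.09 over all genes. There 33 of the 77 were lower at an unadjusted p under 0.05 in edgeR, where 7.08% of all genes were. By subunit, the length offset left 16 of 30 small subunit, 20 of 46 large subunit and 2 of 3 stalk genes lower at that threshold, and length and composition together left 15 of 30, 18 of 44 and 0 of 3. Rpsa kept a log2 fold change of -1.77 ± 0.33 (SE) and Rps2 of -1.09 ± 0.36 (SE) under this fit, while Rpl41 came to 0.015 ± 0.58 and Rpl30 to 0.61 ± 0.78. The members stayed lower on balance, at about a log2 unit below the median of all genes in both fits (-1.10 and -0.93), with fewer of them past the threshold. Their part in the remaining difference was not tested.

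Other short genes leaned lower gene by gene after TMM, though their summed share of counts overlapped between groups. The 1841 other genes with transcripts under 1000 bases held 8.24% and 9.67% of counts in wt and 8.33%, 6.88% and 8.68% in null, so their groups overlapped. Of their 924 tested genes 123 (13.3%) were lower at an unadjusted p under 0.05 in edgeR, where 6.07% of all genes tested were, with a median log2 fold change of -0.48. On log2(FPKM + 0.1) relative to the wt mean their medians were -0.19, -0.26 and 0.23 in null replicates 1 to 3, so only that of null replicate 3 was positive. Each was below the median of all genes tested on this scale, at 0.55, 0.62 and 0.72. In 148 of the 924 all null libraries lay below both wt libraries in FPKM, where 7.22% of all genes tested did so. Among other genes with a mean FPKM of at least 500, 35 of 104 (33.7%) were lower and the median was -0.82, beside 65 of 79 (82.3%) for the members. The difference between these shares was not tested.

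The members lay close to each other within each null library. The interquartile range of their log2 ratio to the wt mean was 0.64, 0.68 and 0.82 in null replicates 1 to 3 for the 75 members. For the 104 other abundant genes it was 1.42, 1.30 and 1.11. The width of the members' range was thus under that of the abundant genes in each null library, and no test was made of it.

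The start sites of the genes were read for the pyrimidine run of TOP messages. Promoter sequences of RefSeq on GRCm38.p6 matched 62 of the members, and for each the longest unbroken run of C or T on the coding strand that begins within 10 bases of an annotated start was taken. A run that begins further upstream and reaches into this stretch, as at the left edge of the Rps16 window below, was not counted. Such a run of 8 or more bases was found in 21 of the 62 (33.9%), against 10.7% of 27025 genes in the promoter table. A run of 10 or more was found in 24.2% against 4.67%. The windows below run from 10 bases before to 20 bases after the start in 5′ to 3′ order of the gene, with the run in capitals. The first 3 were chosen after the runs were seen, to show long runs, and the next 4 are the most abundant members with a start in the table.
Rpl27a (chr7:109519185-109519214, plus strand): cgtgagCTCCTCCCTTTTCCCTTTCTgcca
Rps18 (chr17:33955646-33955675, minus strand): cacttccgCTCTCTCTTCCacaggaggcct
Rps6 (chr4:86857348-86857377, minus strand): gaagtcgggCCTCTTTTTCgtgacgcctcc
Rps2 (chr17:24720053-24720082, plus strand): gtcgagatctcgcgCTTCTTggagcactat
Rplp0 (chr5:115559457-115559486, plus strand): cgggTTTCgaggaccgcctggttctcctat
Rps16 (chr7:28350679-28350708, plus strand): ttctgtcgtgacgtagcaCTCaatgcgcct
Rpl41 (chr10:128549149-128549178, minus strand): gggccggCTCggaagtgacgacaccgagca
The runs are 20, 11 and 10 bases long in the first 3 genes and 6, 4, 3 and 3 in the others. A short run here says only that the letters are not at the annotated start, which may differ from the start used in these cells.

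**Figure D5:**
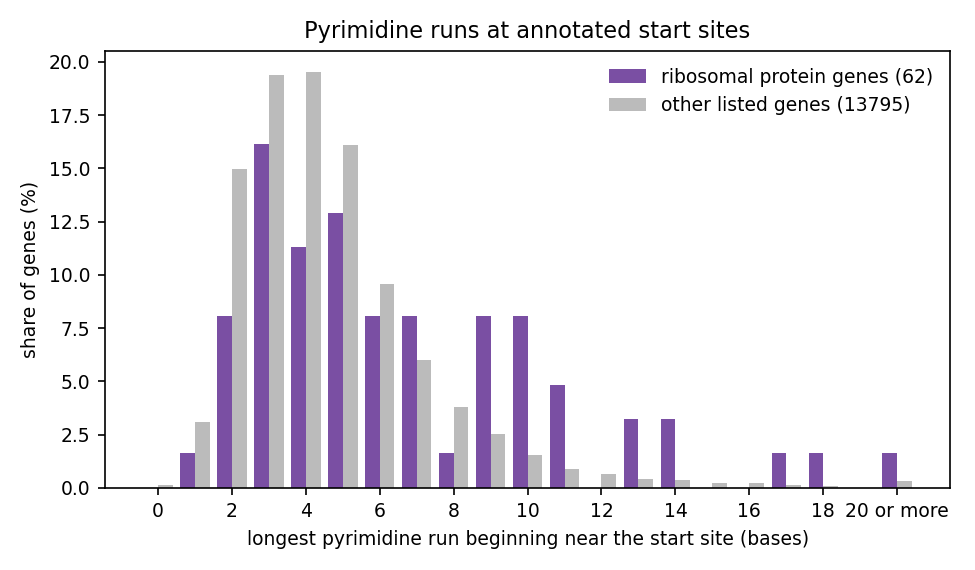
Share of genes (%) by the length of the longest pyrimidine run that begins within 10 bases of an annotated RefSeq start, for 62 ribosomal protein genes and 13795 other listed genes. Runs of 8 or more bases hold 33.9% of the ribosomal protein genes and 11.2% of the other listed genes.

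Run length and fold change had little relation across members. The Spearman correlation of run length with the edgeR log2 fold change was -0.22 over 60 members with both values, as a description. The median log2 fold change was -1.69 in the 21 members with a run of 8 or more and -1.53 in the other 39. Rps18, with a long run, was at 7436 and 6211 in wt and at 1664, 2849 and 3813 in null, and Rpl27a, with the longest, was at 1923 and 2244 in wt and at 1067, 1327 and 1460 in null.

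Genes related to the members by function had medians nearer to 0. Among 16 other TOP messages, which encode translation factors and several proteins of other functions, 8 were lower and 0 higher at an unadjusted p under 0.05 in edgeR, where 6.07% of all genes tested were lower and 12.4% higher, with a median log2 fold change of -1.03. On log2(FPKM + 0.1) relative to the wt mean, their medians were -0.80, -0.26 and -0.28 in null replicates 1 to 3. Those of all genes tested were 0.55, 0.62 and 0.72. Eef1a1, the elongation factor that delivers transfer RNA, was at 21695 and 17482 in wt and at 6265, 13740 and 13866 in null (-1.40, unadjusted edgeR p 0.0108). Eef2, which moves the ribosome along the message, was at 6838 and 5211 in wt and at 3940, 2734 and 2948 in null (-1.47). Tpt1, at 3599 and 3127 in wt and 1149, 4618 and 2823 in null, overlapped between groups. Pabpc1, the cytoplasmic poly(A)-binding protein, was the 1 gene of the list with a positive log2 fold change. It was at 319 and 322 in wt and at 990, 682 and 1241 in null (1.02, unadjusted edgeR p 0.0513). All 3 null libraries lay above both wt libraries, which held for 2 of the 16 genes of the list and for 4749 of the 13240 genes tested.

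The name rule leaves out a few other ribosome genes. Rack1, a scaffold on the small subunit, was at 6237 and 6211 in wt and at 2869, 2313 and 2548 in null (-1.85, unadjusted edgeR p 0.00133). Rps3a1 was at 3082 and 2652 in wt and at 770, 1955 and 2356 in null (-1.37, unadjusted edgeR p 0.0289). Both were lower in every null library than in either wt library. Fau, a fusion of a ubiquitin-like protein with a small subunit protein, was at 1449 and 1531 in wt and at 1500, 890 and 1093 in null (-0.93). Rps27a, a fusion with ubiquitin, was at 562 and 379 in wt and at 256, 895 and 963 in null (-0.020), so its groups overlapped.

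The machinery that builds ribosomes had a median below 0 after TMM, but not in every library by FPKM. Of 32 biogenesis genes, 5 (15.6%) were lower and 0 higher at an unadjusted p under 0.05 in edgeR, where 6.07% of all genes tested were lower and 12.4% higher, with a median log2 fold change of -0.65. On log2(FPKM + 0.1) relative to the wt mean, the medians of the list were -0.30, 0.46 and -0.19 in null replicates 1 to 3. Only that of null replicate 2 was positive. Each was below the median of all genes tested, at 0.55, 0.62 and 0.72. Npm1, the nucleolar chaperone, was at 449 and 398 in wt and at 149, 604 and 644 in null (-0.48). Eif6, which keeps the subunits apart until maturation ends, was at 348 and 268 in wt and at 266, 115 and 102 in null (-1.47). Fbl, which methylates ribosomal RNA, was at 212 and 202 in wt and at 181, 178 and 83.8 in null (-1.06), and Nhp2, of the pseudouridine particles, was at 146 and 125 in wt and at 104, 128 and 120 in null (-0.79). The biogenesis list as a whole held 0.423% and 0.296% of counts in wt and 0.261%, 0.410% and 0.293% in null, which overlap.

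The mitochondrial ribosome has its own proteins, encoded by 78 tested genes. Of these 27 (34.6%) were lower and 0 higher at an unadjusted p under 0.05 in edgeR, where 6.07% of all genes tested were lower and 12.4% higher, with a median log2 fold change of -0.81. On log2(FPKM + 0.1) relative to the wt mean, their medians were -0.44, -0.21 and -0.11 in null replicates 1 to 3. The medians of all genes tested were 0.55, 0.62 and 0.72 on this scale, beside 0.29 after TMM. Mrpl28 was at 235 and 226 in wt and at 158, 99.1 and 114 in null (-1.46), and Mrpl12 was at 178 and 145 in wt and at 240, 104 and 88.8 in null (-0.70). Mrpl24 was at 218 and 196 in wt and at 113, 70.0 and 127 in null (-1.58), while Mrpl14 was at 78.8 and 120 in wt and at 322, 47.8 and 146 in null (0.24). Of 13 growth regulators of ribosome production, 0 were lower and 1 (7.69%) was higher at that threshold, a share under the 12.4% of all genes tested. The 1 gene was Larp1, at 4.17 and 2.82 in wt and 18.4, 10.0 and 9.10 in null (1.30, unadjusted edgeR p 0.0495). Myc, at 34.5 and 13.0 in wt and 51.4, 41.8 and 60 in null (0.57, p 0.306), and Eif4ebp1, at 464 and 231 in wt and 176, 164 and 437 in null (-0.99, p 0.125), did not pass that edgeR threshold.

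The pair of wt libraries, which differ by TSH in their labels, was nearly level in ribosomal protein genes. This comparison has 1 library on each side and no test. Of 80 members with an FPKM of at least 1 in either library, 1 was 2-fold or more apart, beside 13.6% of 9613 genes. The median log2 ratio of wt replicate 2 over wt replicate 1 was 0.014 (quartiles -0.23 and 0.21), and over all those genes it was -0.20 (quartiles -0.58 and 0.19). Among members with a mean FPKM of at least 1 over the 5 libraries, the highest ratios were those of Rps27rt, of Rpl37a, at 1304 and 2574, and of Rpl37rt, at 191 and 279. The lowest were those of Rps6, at 3562 and 2399, Rpl6, at 1671 and 1252, and Rpl8, at 5404 and 4170. Rpl32l, under that limit at 1.92 and 1.09, had a lower ratio still, of -0.76 on the log2 scale.

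Copies and paralogs among the members were mostly at low levels. Rpl3l, a muscle paralog of Rpl3, was at an FPKM of 0.050 to 0.12 in all libraries, and Rps4l at 0.15 to 0.76. Both stayed below the filter and were not tested. Rpl32l had 33 and 19 counts in wt and 1, 7 and 5 in null, and 19.4% of its 50-base words also occur in transcripts of Rpl32, so reads may have been divided between them. Its log2 fold change of -3.08, the lowest of all members, rests on these few counts. Pseudogene names that the rule leaves out can be abundant as well. Rpl31-ps12 had a mean FPKM of 793 over the 5 libraries, beside 529 for Rpl31, and Rpl34-ps1 one of 546, beside 686 for Rpl34. Whether reads were divided between these genes was not tested.

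Rps27rt, a retrogene of Rps27, was listed only in wt replicate 2, with 84 counts and an FPKM of 7.91, and was not tested. It shares 91.1% of its 50-base words with Rps27 transcripts, and around their starts the 2 genes share the 19 bases ctttccggcggtgacgacc, as the windows show.
Rps27 (chr3:90213629-90213658, minus strand): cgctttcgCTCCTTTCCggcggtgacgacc
Rps27rt (chr9:114982720-114982749, minus strand): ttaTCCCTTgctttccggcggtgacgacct
The capitals again mark the pyrimidine run, which is 9 bases in Rps27 and 6 in Rps27rt. In Rps27rt a second run, ctttcc, is as long and begins at the annotated start, and the first of the 2 is marked. Rps27 itself was at 2424 and 1925 in wt and at 1336, 1640 and 1892 in null (-1.01 ± 0.37). Rps27l, a p53-inducible paralog with no 50-base word in common with Rps27, was at 269 and 222 in wt and at 110, 244 and 157 in null (-1.13 ± 0.45). Rpl37rt, which shares 35.0% of its words with Rpl37, was at 191 and 279 in wt and at 27.5, 105 and 223 in null, and its level cannot be told apart from that of Rpl37 with certainty.

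Rpl36a and Rpl36al encode nearly the same protein of the large subunit but share no 50-base word, and the latter is a retrogene. Their starts, shown for comparison, differ as well.
Rpl36a (chrX:134585644-134585673, plus strand): cccaggcaccgcctataaaCTTCCgttgcg
Rpl36al (chr12:69184048-69184077, minus strand): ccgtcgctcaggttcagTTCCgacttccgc
Rpl36al was at 711 and 777 in wt and at 181, 308 and 204 in null (-2.29 ± 0.42, edgeR unadjusted p 0.0011). Rpl36a was at 1448 and 1347 in wt and at 374, 1435 and 1827 in null (-0.83 ± 0.63, p 0.23 in edgeR). Rpl36al made up 32.9% and 36.6% of the summed FPKM of the pair in wt and 32.7%, 17.7% and 10.0% in null replicates 1 to 3. The share in null replicate 1 was thus at the level of wt, and the shares in the other null libraries were below it. Outside the name rule, Rpl22l1, the paralog of Rpl22, was at 129 and 65.8 in wt and at 27.02, 120 and 79.7 in null (-0.96), and Rpl7l1 was at 82.3 and 57.5 in wt and at 36.6, 61.8 and 48.5 in null (-1.09).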

How the data were processed

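RNA of 2 BVE-Ctnnb1wt and 3 BVE-Ctnnb1null libraries was sequenced from TruSeq libraries. For each RefSeq transcript the deposited tables give an expected count, which can be fractional, and an FPKM, normalized by the authors to transcript length and library size. Transcripts under an FPKM of 0.01 are not listed. The aligner, counter and build are not given in the sources used here. Estimated counts were summed per NCBI gene and rounded, and deposited FPKM values were summed. Symbols for 17866 of 17923 genes came from the RefSeq gene table of GRCm38.p6. edgeR 4.0.16 in R 4.3.3 (TMM, filterByExpr by group, quasi-likelihood test, Benjamini-Hochberg over 13240 genes, threshold 0.05) compared null with wt, with the SE taken as the log2 fold change over the root of F. Alternatives were DESeq2 1.42.0, library totals, TMM without the 10 most abundant genes per library, no count filter, a minimum of 10 counts per library, limma 3.58.1 (trend, log2 FPKM with a pseudocount of 0.1, 0.01 or 1, FPKM of at least 0.5 in 2 libraries), each library left out, the replicate number as a block, and, added after seeing the data, edgeR with offsets from lowess trends (span 0.3) on transcript length, or length and GC. Fits were tested on simulated data. GC and 50-base words came from GENCODE M21 transcripts. Named members are the 5 most abundant, the 10 of lowest unadjusted p, the 5 most and 3 least variable, the 3 at each end of the wt pair, paralogs, stalk genes and a few set names. Rps18, Rpl27a, Rps15a, Rpl22, Rps10, Larp1, Pabpc1 and the members listed for overlap or order were named after their values were seen. The members, lists and tests were chosen with earlier results of these data known. Protein sequences were not analysed here. A few genes of the lists are not reported here by name.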

Additional observations from a re-analysis of the deposited data

How the results depend on the processing

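All 79 tested members kept a negative log2 fold change under TMM without the 10 most abundant genes, the filter of at least 10 counts (78 tested), DESeq2, the 3 limma fits and the replicate block. Called members numbered 0 in edgeR and limma fits and 53 in DESeq2. The count of members lower at an unadjusted p under 0.05, 65 as reported, came to 37 with library totals, 38 with the length offset, 33 with the length and GC offset, and 41 to 67 when 1 library was left out, where 2.02% to 11.5% of all genes tested were lower, with 41 (2.02%) without wt replicate 2, a fit that assumes that the lone wt library varies like the others. The median of -1.58 came to -0.97 with library totals, -1.01 in limma at each pseudocount (-1.015, -1.015 and -1.009), -0.98 with the length offset and -0.84 with the length and GC offset. The share of counts, null minus wt, was -12.4 percentage points, -9.78 without the 10 most abundant genes and -15.4 as a share of FPKM, and -13.3 to -11.3 when 1 library was left out. Rpl30 turned from -0.38 to 0.25 with library totals, 0.21 with the length offset and 0.61 with the length and GC offset, and Rpl41 turned to 0.015 in the last. Rpl30 came to -1.46 without null replicate 3 and with the replicate block, and to -0.016 without null replicate 1. The cause of these moves was not tested beyond the construction of each alternative. Replicate numbers pair no samples by the labels, and deviations of same-numbered libraries correlated at -0.11 in both pairs. With 2 wt libraries the deviations of 1 mirror those of the other, so these values cannot decide whether samples were paired. With the replicate number as a block 57 members were lower at an unadjusted p under 0.05, where 4.15% of all genes tested were, 0 were called and the median was -1.71. In that fit null replicate 3, alone with its number, adds nothing to the group difference, so it is no separate check beside leaving that library out. Depth was even and does not limit members above the low counts of Rpl32l, Rps4l, Rpl3l and Rps27rt.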
